A study of Mus musculus with 12 samples.

Results

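Kupffer cells are the resident macrophages of the liver, and the 10 genes described here are markers of these cells or of macrophages in general. Of these known markers, 6 mark mainly resident Kupffer cells (Clec4f, Vsig4, Timd4, Marco, Cd5l and Cd163) and 4 mark macrophages at large (Adgre1, Csf1r, C1qa and Cd68). They are 10 of the 24296 gene symbols in the table, and the value of a gene is the sum of FPKM (fragments per kilobase of transcript, scaled to library size) over the table rows that carry its symbol. RNA was measured in whole liver of 12 male C57/BL6N mice, with 3 livers in each of 4 groups, and the age of the mice is not given in the sources used here. The control group is labelled wild type and had no carbon tetrachloride (CCl4). The model group had fibrosis from CCl4 in olive oil, injected into the peritoneum at 5 mL/kg on 2 days a week over 8 weeks. Mice given silibinin, and mice given phloridzin at its high dose, had the same CCl4 injections plus the drug, which began in week 5. No group had a drug alone. A drug group is set apart from the model group by the drug, and from the control group by CCl4 and the drug together, which cannot be separated there.

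In a healthy liver, Kupffer cells sit in the sinusoids, where they take up bacteria, old red cells and debris from portal blood. They arise largely before birth and renew themselves locally under the growth factor CSF1, which acts through the receptor encoded by Csf1r. After injury, blood monocytes enter the liver and become macrophages, and these carry the general markers while they gain the Kupffer cell markers late or in part. In RNA of whole liver, fewer cells of a type and less RNA in each cell cannot be told apart.

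The libraries held 83.7 to 110.9 M fragments (M for mega), as read from the steps between low FPKM values. The control livers had 105.2, 108.4 and 109.6 M, the model livers 83.7, 101.5 and 100.1 M, the silibinin livers 106.7, 110.9 and 110.1 M and the phloridzin livers 102.1, 104.7 and 98.5 M. All 10 markers passed the filter of a mean of at least 0.5 FPKM, together with 13158 genes in all. Of the 12 livers, 4 were over all genes most like a liver of another group. Phloridzin 1, with the lowest mean correlation with its own group (0.920), was most like silibinin 2 (r = 0.936). Silibinin 3 was most like phloridzin 2 (r = 0.953), and phloridzin 2 and phloridzin 3 were most like silibinin 3 (0.953 and 0.952). Marker calls are also given without phloridzin 1 and silibinin 3 together, and without each single liver.

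The marker genes are spread over the genome: Clec4f and Cd163 both lie on chromosome 6 and Timd4 and Cd68 on chromosome 11, and the other 6 are each on a chromosome of their own. RefSeq promoters (build GRCm38.p6) were found for 7 of the 10. The 250 bases before the start were searched on both strands for GAGGAA, the core that the macrophage factor PU.1 binds, and for TGCTGA, the half-site of MAF factors. GAGGAA was found in 4 of 7 marker promoters and in 23.3% of 32851 promoters of the same length, and TGCTGA in 3 of 7 and in 16.1%. A match describes only the letters of the sequence. The promoters of Clec4f, Vsig4, Marco and Cd163 are shown as examples, picked after the values of these genes had been seen. The bases lie before the RefSeq start of the gene, they are written 5′ to 3′ on the strand of the gene, and capitals mark GAGGAA or its reverse complement. Clec4f is at chr6:83656188-83656366 on the minus strand, Vsig4 at chrX:96293439-96293688 on the minus strand, Marco at chr1:120505025-120505274 on the minus strand and Cd163 at chr6:124304401-124304650 on the plus strand. For Clec4f only the 179 bases before the start of the gene in the transcript annotation are shown. Vsig4 has 2 matches, Marco has 1, and Cd163 and the bases shown for Clec4f have 0.
Clec4f: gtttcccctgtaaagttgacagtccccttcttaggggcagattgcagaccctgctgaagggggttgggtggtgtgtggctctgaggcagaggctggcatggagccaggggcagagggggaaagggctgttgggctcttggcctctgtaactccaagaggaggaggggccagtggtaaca
Vsig4: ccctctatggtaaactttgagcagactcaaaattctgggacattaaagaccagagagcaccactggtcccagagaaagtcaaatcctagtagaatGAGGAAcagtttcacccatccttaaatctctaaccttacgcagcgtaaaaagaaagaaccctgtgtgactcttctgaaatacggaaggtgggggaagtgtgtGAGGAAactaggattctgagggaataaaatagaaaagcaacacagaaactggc
Marco: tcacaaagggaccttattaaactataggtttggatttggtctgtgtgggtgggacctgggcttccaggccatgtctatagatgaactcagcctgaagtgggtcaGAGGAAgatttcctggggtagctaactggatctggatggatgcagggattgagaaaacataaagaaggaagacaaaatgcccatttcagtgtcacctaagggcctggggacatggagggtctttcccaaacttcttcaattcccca
Cd163: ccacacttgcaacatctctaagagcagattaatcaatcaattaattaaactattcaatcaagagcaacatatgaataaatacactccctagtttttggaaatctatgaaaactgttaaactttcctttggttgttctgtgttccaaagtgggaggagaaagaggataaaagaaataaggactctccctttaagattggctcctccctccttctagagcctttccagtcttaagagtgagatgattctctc

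The 10 markers covered a wide range of levels. Over the 12 livers, Cd5l was the most abundant, with a mean of 111 FPKM, followed by C1qa (43.5), Csf1r (27.0), Vsig4 (25.5), Clec4f (20.6), Adgre1 (18.4) and Marco (17.3). Cd163 (6.72 FPKM) and Timd4 (4.23 FPKM) were lower, and Cd68, at 0.612 FPKM, was the lowest of the 10 and close to the filter. The Kupffer cell markers were detected in every liver. Cd68 encodes a lysosomal glycoprotein that is widely used to stain macrophages, and its level here rested on 7 to 233 fragments a liver, so that it carried little weight beside the other markers. A row of Cd68 without protein-coding type made up 28.5% of its level, and it was at 0 in the 3 control livers and at 0.371, 0.628 and 0.359 FPKM in the model livers. Whether an overlapping transcript takes fragments of Cd68 was not tested. Marco and Cd68 varied most within groups, with mean coefficients of variation of 87.7% and 84.7%, and Csf1r varied least, at 21.3%.

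**Figure D1:**
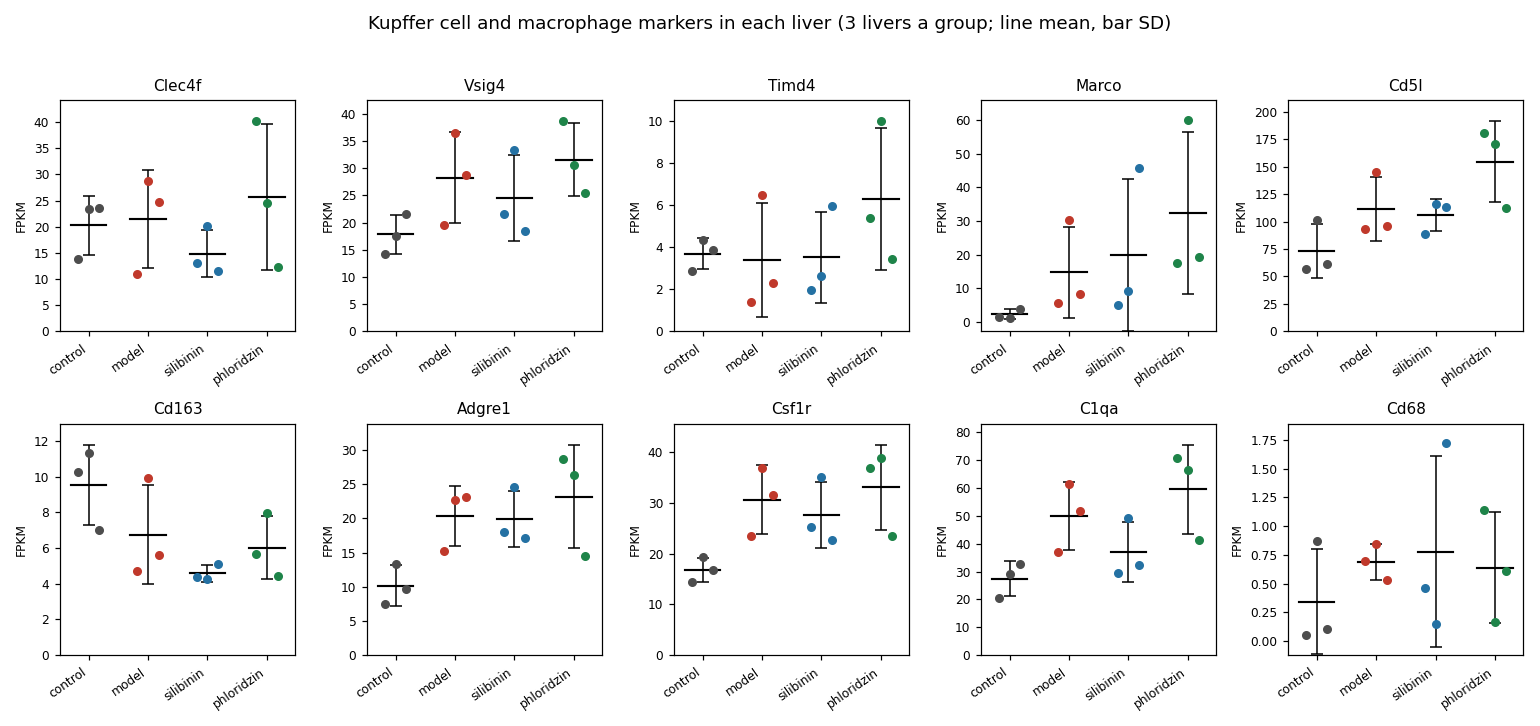
FPKM of each of the 10 markers (vertical axes, linear, 1 scale for each gene) in the 12 livers, by group; points are livers, lines are means and bars are SD of 3 livers. Marco lies between 1.11 and 3.90 FPKM in the control livers and between 4.82 and 60.1 FPKM in the other 9 livers, while the Clec4f values of all 4 groups overlap.

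Clec4f encodes a C-type lectin found in rodents almost exclusively on Kupffer cells. Its level was 13.8, 23.3 and 23.6 FPKM in the control livers and 11.02, 28.7 and 24.6 FPKM in the model livers. The silibinin livers had 13.03, 20.1 and 11.6 FPKM, and the phloridzin livers had 40.2, 24.5 and 12.4 FPKM. The groups overlapped throughout, with the highest value in phloridzin 1 and the lowest in model 1. The log2 fold change of Clec4f between the model and control groups was 0.02, with a 95% interval of -0.96 to 0.99 (limma, adjusted p = 0.98), which leaves room for about a 2-fold change either way. With median-ratio scaling of the livers, this value turned to -0.43 (adjusted p = 0.49).

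Timd4 encodes a receptor for phosphatidylserine on dying cells and marks long-lived resident Kupffer cells. Its level was 2.88, 4.34 and 3.87 FPKM in the control livers and 1.41, 6.48 and 2.30 FPKM in the model livers. It was 1.97, 2.62 and 5.98 FPKM with silibinin and 5.41, 10.02 and 3.45 FPKM with phloridzin. In the model group, 2 of 3 livers lay below all control livers and 1 lay above them. The log2 fold change of Timd4 in the model group against the control group was -0.25 (interval -1.27 to 0.77, limma adjusted p = 0.70).

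Cd163 encodes the scavenger receptor that removes complexes of haemoglobin and haptoglobin. Its level was 10.3, 11.3 and 6.99 FPKM in the control livers, 4.73, 9.93 and 5.62 FPKM in the model livers, 4.35, 4.28 and 5.12 FPKM in the silibinin livers and 5.66, 7.94 and 4.45 FPKM in the phloridzin livers. It was the only one of the 10 markers whose mean was highest in the control group, and all 3 silibinin livers lay below all 3 control livers. The log2 fold change of Cd163 was -0.47 in the model group (adjusted p = 0.19), -0.89 in the silibinin group (adjusted p = 0.082) and -0.59 in the phloridzin group (adjusted p = 0.20), each against the control group in limma. With median-ratio scaling, Cd163 passed the adjusted p in the model group (log2 fold change -0.89, adjusted p = 0.036) and was DE in the silibinin group (-1.12, adjusted p = 0.045). Under that scaling, 12.6% of all genes passed and were lower in the model group, and 0.433% were DE and lower in the silibinin group. A row of the table for a Cd163 transcript with a retained intron made up 34.4% to 50.4% of the FPKM of the gene.

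Marco encodes a class A scavenger receptor that binds bacteria and particles. Its level was 1.46, 1.11 and 3.90 FPKM in the control livers and 5.56, 30.2 and 8.23 FPKM in the model livers. It was 4.82, 9.06 and 45.9 FPKM with silibinin and 17.5, 60.1 and 19.3 FPKM with phloridzin. Every liver with CCl4 lay above every control liver, and within each CCl4 group 1 liver had more than 2 times the level of the next. The log2 fold change of Marco against the control group was 2.07 in the model group (interval 0.27 to 3.87, limma adjusted p = 0.070), 2.25 in the silibinin group (adjusted p = 0.14) and 3.27 in the phloridzin group (interval 1.48 to 5.07, adjusted p = 0.037).

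Vsig4 encodes the complement receptor of the immunoglobulin family, which binds fragments of C3. Its level was 14.3, 17.6 and 21.6 FPKM in the control livers, 19.6, 36.4 and 28.8 FPKM in the model livers, 21.6, 33.4 and 18.4 FPKM in the silibinin livers and 38.7, 30.6 and 25.5 FPKM in the phloridzin livers. All 3 phloridzin livers lay above all control livers, but no comparison of Vsig4 passed the adjusted p on FPKM as deposited. Cd5l encodes a secreted macrophage protein, also called AIM, that protects macrophages from apoptosis. Its level was 56.6, 101 and 61.2 FPKM in the control livers, 93.1, 145 and 95.8 FPKM in the model livers, 88.8, 116 and 113 FPKM in the silibinin livers and 181, 170 and 112 FPKM in the phloridzin livers. The control liver with 101 FPKM overlapped the model and silibinin livers but not the phloridzin livers.

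Of the 4 general macrophage markers, 3 had every model liver above every control liver, as had 45.1% of all genes. Adgre1, which encodes the F4/80 antigen, was at 7.52, 13.3 and 9.61 FPKM in the control livers and at 15.2, 22.7 and 23.1 FPKM in the model livers. Csf1r was at 14.5, 19.2 and 16.8 FPKM in the control livers and at 23.4, 36.9 and 31.5 FPKM in the model livers. C1qa, which encodes a chain of complement component C1q, was at 20.6, 28.9 and 32.7 FPKM in the control livers and at 37.2, 61.2 and 51.5 FPKM in the model livers. Cd68 was at 0.0541, 0.869 and 0.107 FPKM in the control livers and at 0.697, 0.841 and 0.529 FPKM in the model livers, and control 2 lay above all 3 model livers.

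In the drug groups, the values of Adgre1, Csf1r and C1qa overlapped those of the model livers, and Cd68 was spread more widely than in the model group. Adgre1 was at 17.9, 24.5 and 17.1 FPKM with silibinin and at 28.7, 26.4 and 14.5 FPKM with phloridzin. Csf1r was at 25.3, 35.01 and 22.6 FPKM with silibinin and at 36.9, 38.8 and 23.5 FPKM with phloridzin. C1qa was at 29.5, 49.2 and 32.3 FPKM with silibinin and at 70.8, 66.4 and 41.1 FPKM with phloridzin. Silibinin 1 and silibinin 3 thus had C1qa values within the control range. Cd68 was at 0.463, 0.147 and 1.72 FPKM with silibinin and at 1.14, 0.168 and 0.609 FPKM with phloridzin, with no separation of any groups.

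The comparison of the model and control groups asks what 8 weeks of CCl4 did to the markers. Genes were called DE (differentially expressed) at a limma adjusted p under 0.05 together with a log2 fold change whose size was over 1, on the scale of log2(FPKM + 1), which understates changes of low genes. By this rule 0 of 10 markers were DE, against 9.42% of 13158 genes that were DE and higher and 1.08% that were DE and lower. At an unadjusted p under 0.05 there were 6 of 10, against 45.8% of all genes, and limma-voom on recovered fragments called 1 of 10 DE, against 2535 of 13150 genes. By the adjusted p alone, 3 of 10 markers rose, against 31.1% of all genes, and 0 fell, against 3.8%. These were Adgre1 (log2 fold change 0.95, SE 0.28, adjusted p = 0.026), Csf1r (0.81, SE 0.24, adjusted p = 0.024) and C1qa (0.84, SE 0.28, adjusted p = 0.040), each higher in 3 of 3 model livers than in any control liver. For 4 of 10 markers, Marco included, the groups did not overlap and the model group was higher, against 45.1% of all genes, and for 0 it was lower, against 6.92%.

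The deposited values of most genes moved upward together in the model group, with a median log2 fold change over all genes of 0.34. The median of the 10 markers was 0.62, that of the 6 Kupffer cell markers 0.32 and that of the 4 general markers 0.82. Relative to all genes, the log2 fold change was 0.61 for Adgre1, 0.47 for Csf1r and 0.50 for C1qa, and it was -0.32 for Clec4f, -0.59 for Timd4 and -0.81 for Cd163. Rows with a symbol held 57.9% to 62.1% of all FPKM in the control livers and 64.2% to 68.6% in the model livers. In the drug groups they held 65.4% to 70.9%, and the part of this in the upward shift was not tested. Median-ratio scaling, which takes out the shift of all genes, moved the all-gene median to -0.01 and the split of DE genes from 1240 higher and 142 lower to 493 higher and 480 lower. With it, Adgre1, Csf1r and C1qa no longer passed (adjusted p = 0.19, 0.28 and 0.35), at log2 fold changes of 0.50, 0.36 and 0.38. By the adjusted p, 0 of 10 markers were then higher, against 12.6% of all genes, and 1 was lower, against 12.6%. Scaling to equal total FPKM, added after the data were seen, went the other way: Adgre1 (1.15), Csf1r (1.02), C1qa (1.05) and Marco (2.24) were then DE, and Vsig4 (0.82, adjusted p = 0.023) and Cd5l (0.84, adjusted p = 0.025) passed the adjusted p alone. Of all genes, 14.8% were DE and higher at equal total FPKM, and 0.661% were DE and lower. With only the highest row of each gene, Adgre1 (log2 fold change 1.32, adjusted p = 0.067) and C1qa (0.84, adjusted p = 0.063) also lost their pass, C1qa lost it with no filter on low values (0.84, adjusted p = 0.064), and the main row of Adgre1 held 35.7% to 84.9% of the FPKM of the gene. Leaving out 1 liver also ended calls. Without control 1, model 2 or model 3, the adjusted p was 0.091, 0.079 and 0.080 for Adgre1, 0.078, 0.085 and 0.064 for Csf1r and 0.13, 0.13 and 0.096 for C1qa. Without control 3 it was 0.066 for Adgre1 and 0.057 for Csf1r, and without control 2 it was 0.073 for C1qa. Without control 2, Adgre1 was DE (log2 fold change 1.14), and without model 1, Adgre1 (1.13) and C1qa (1.03) were DE.

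**Figure D2:**
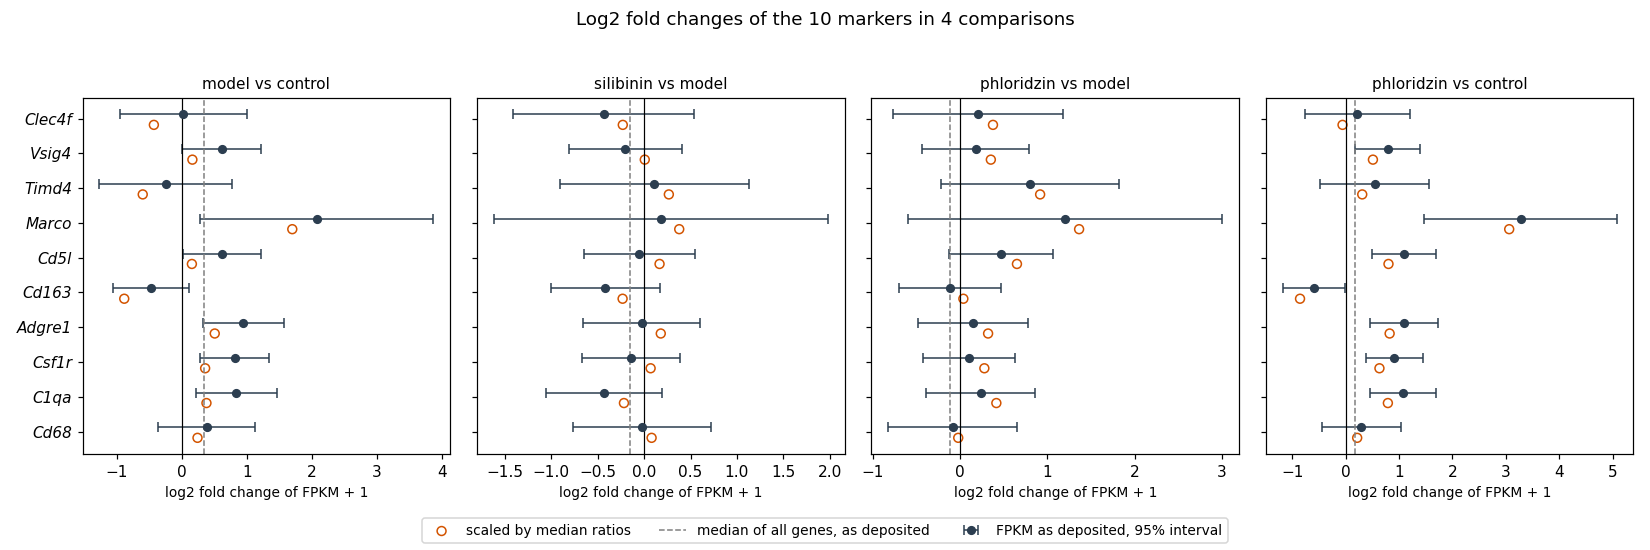
Log2 fold changes of FPKM + 1 (horizontal axes, a scale for each panel) of the 10 markers in 4 comparisons; filled points with bars are limma estimates and 95% intervals on FPKM as deposited, open circles are the estimates after median-ratio scaling, and the dashed line is the median of all genes. In the model group against the control group, Clec4f lies at 0.02 and, after scaling, at -0.43, while Adgre1 lies at 0.95 and 0.50.

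Ratios between markers of the same liver do not depend on how livers are scaled. They were added after the values had been seen, the rise of Csf1r among them, and are given as a description with no test. Of 13157 other genes, 28.2% were lower per Csf1r in every model liver than in every control liver, and 9.29% were higher. Clec4f per Csf1r was 0.955, 1.21 and 1.41 in the control livers and 0.472, 0.780 and 0.783 in the model livers. Timd4 per Csf1r was 0.199, 0.226 and 0.231 in the control livers and 0.0605, 0.176 and 0.0732 in the model livers. Cd163 per Csf1r was 0.709, 0.590 and 0.417 in the control livers and 0.202, 0.269 and 0.178 in the model livers. For each of these 3 Kupffer cell markers, every model liver had a lower level per Csf1r than every control liver. Vsig4 and Cd5l per Csf1r overlapped between the model and control groups, with means of 0.914 and 1.06 for Vsig4 and of 3.65 and 4.27 for Cd5l.

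Marco per Csf1r was 0.101, 0.0575 and 0.233 in the control livers and 0.238, 0.820 and 0.261 in the model livers. It was 0.191, 0.259 and 2.03 in the silibinin livers, which overlapped the control livers, and 0.475, 1.55 and 0.824 in the phloridzin livers, which did not and were higher (4.04% of genes). Marco per Timd4 was 0.507, 0.255 and 1.01 in the control livers and 3.93, 4.67 and 3.57 in the model livers. It was 2.44, 3.46 and 7.67 in the silibinin livers and 3.24, 6.00 and 5.60 in the phloridzin livers. All 9 livers with CCl4 lay above the 3 control livers in Marco per Timd4, as they did for 2.61% of 13157 genes per Timd4, and 0.198% of genes were lower in this way. Within groups, Marco and Timd4 nevertheless varied together (r = 0.889 over the deviations of 12 livers from their group means), with their highest values in the same liver of each CCl4 group (model 2, silibinin 3 and phloridzin 2).

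**Figure D3:**
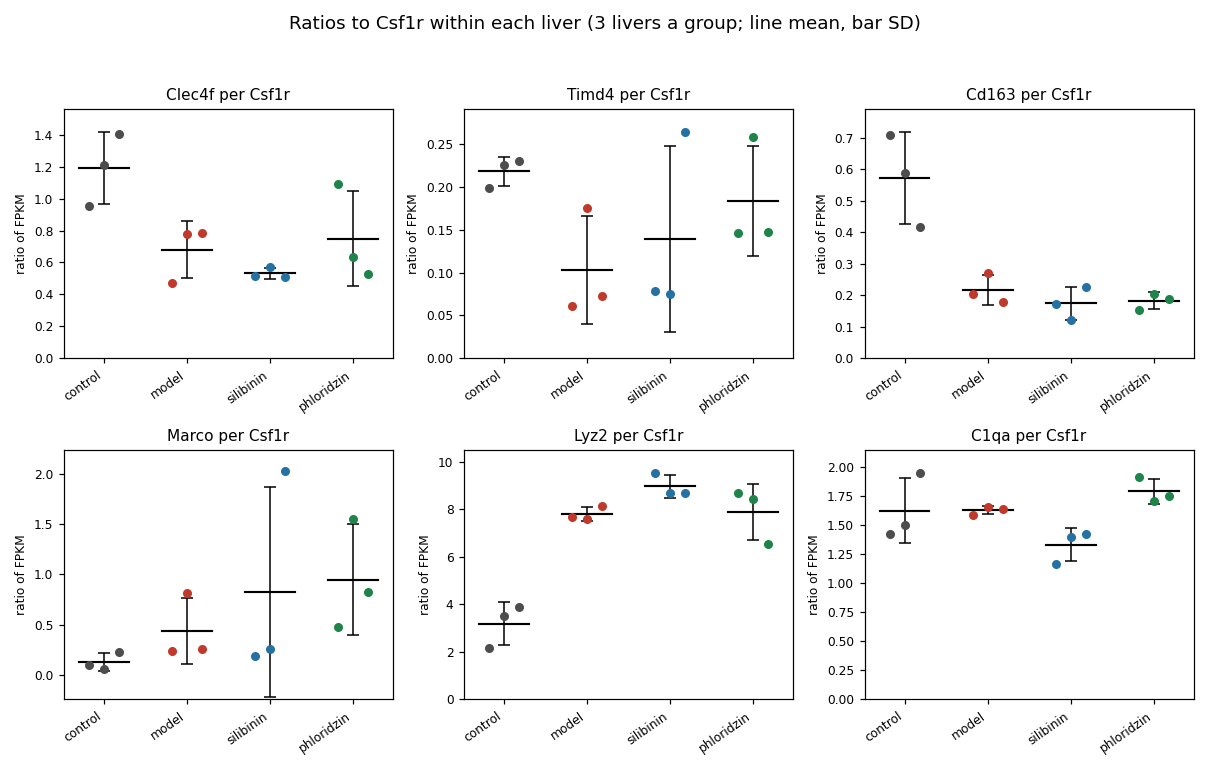
Ratios of the FPKM of 6 genes to that of Csf1r in the same liver (vertical axes, no unit), by group; points are livers, lines are means and bars are SD of 3 livers. Clec4f, Timd4 and Cd163 per Csf1r are lower in every model liver than in every control liver, and Lyz2 per Csf1r is higher, from 2.15 to 3.88 in control livers and from 7.60 to 8.12 in model livers.

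The comparisons of each drug group with the model group ask whether the drugs moved the markers on the CCl4 background. With silibinin, 0 of 10 markers were DE, against 3.25% of all genes that were DE and lower and 0.745% DE and higher. With phloridzin it was also 0 of 10, against 2.92% lower and 0.6% higher. In both comparisons 0 of 10 passed the limma adjusted p (11.4% of genes lower and 2.62% higher with silibinin, 10.4% and 2.5% with phloridzin), 0 of 10 had an unadjusted p under 0.05 (29.2% of genes with silibinin and 27.8% with phloridzin), and limma-voom called 0 of 10 DE (795 and 673 of 13150 genes). No marker had groups without overlap in either comparison, against 27.8% of genes lower and 8.91% higher with silibinin and 22.4% lower and 8.21% higher with phloridzin. The intervals were wide. The log2 fold change of Csf1r, the least variable marker, was -0.14 with silibinin (interval -0.67 to 0.39) and 0.10 with phloridzin (interval -0.43 to 0.63). That of Marco was 0.18 with silibinin (interval -1.62 to 1.98) and 1.20 with phloridzin (interval -0.60 to 3.00).

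The direct comparison of the phloridzin and silibinin groups gave 0 of 10 markers DE, against 0.0076% of all genes DE and higher and 0.0152% DE and lower. At an unadjusted p under 0.05 there was 1 of 10, against 3.75% of genes, and limma-voom called 0 of 10, against 3 of 13150 genes. No marker had groups without overlap, against 5.19% of genes higher and 2.8% lower with phloridzin. The marker under 0.05 was C1qa, with a log2 fold change of 0.67 (interval 0.05 to 1.29, limma adjusted p = 1). C1qa per Csf1r was 1.17, 1.404 and 1.43 in the silibinin livers, 1.59, 1.66 and 1.64 in the model livers and 1.92, 1.71 and 1.75 in the phloridzin livers. These 3 groups did not overlap in this ratio, and the control livers, at 1.43, 1.505 and 1.95, overlapped the model and phloridzin livers. Of 13157 genes, 0.578% had these 3 groups apart in any order per Csf1r. By pairs, 12.2% were lower with silibinin than in the model group and 6.65% higher, and 2.75% were higher with phloridzin than in the model group and 14.4% lower. Cd5l per Csf1r was also higher in every phloridzin liver (4.90, 4.39 and 4.78) than in every model liver (3.99, 3.93 and 3.04), and Lyz2 per Csf1r was higher in every silibinin liver (9.53, 8.69 and 8.67) than in every model liver (7.68, 7.60 and 8.12). In phloridzin 2, a second row of Csf1r held 22.7% of its FPKM, against under 1% in the other 11 livers. With the main row of Csf1r alone, C1qa per Csf1r was 2.21 in phloridzin 2 and the 3 groups were still apart, and Vsig4 per Csf1r was then also higher in every phloridzin liver than in every model or silibinin liver. These ratios were not tested.

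The phloridzin group was also set against the control group, which differs from it by CCl4 as well as by the drug. On FPKM as deposited, 4 of 10 were DE and higher, against 2.74% of all genes, and 5 of 10 passed the adjusted p and were higher, against 7.51%. None was lower by either rule, against 0.289% and 0.479% of genes. At an unadjusted p under 0.05 there were 7 of 10, against 24.6% of genes, and limma-voom called 3 of 10 DE, against 937 of 13150 genes. The DE markers were Marco (log2 fold change 3.27, SE 0.81, limma adjusted p = 0.037), Cd5l (1.09, SE 0.27, adjusted p = 0.037), Adgre1 (1.09, SE 0.28, adjusted p = 0.042) and C1qa (1.07, SE 0.28, adjusted p = 0.043). Csf1r passed the adjusted p alone (0.91, adjusted p = 0.044). These 5 markers and Vsig4 were higher in 3 of 3 phloridzin livers than in any control liver, and 26.8% of all genes were, while 0 were lower without overlap, against 2.99%. The median log2 fold change was 0.85 for the 10 markers and 0.18 for all genes. Other lists also had calls in this comparison: 6 of 11 other general macrophage genes, 5 of 8 scar-associated genes, 4 of 7 monocyte genes, 3 of 7 transcription factors, 1 of 8 other Kupffer cell genes, 0 of 6 niche genes and 2 of 7 stellate cell genes were DE and higher. With median-ratio scaling, in the same order, 3, 4, 4, 1, 1, 1 and 2 genes passed the adjusted p and were higher. Of all genes, 4.08% did so. In the 6 fits with 1 liver left out, Aif1, C1qb, Mpeg1, Itgam and Spic each passed in 1, and Lyz2, Gpnmb and Trem2 in all 6. Of other cell types, Krt19 of the cholangiocyte list was DE and higher (1.22, adjusted p = 0.0090), and Cyp2e1 of the hepatocyte list (-2.56, adjusted p = 0.0063) and Hba-a1 of the erythroid list (-1.46, adjusted p = 0.030) were DE and lower. Their part in the marker calls was not tested. The contrast between phloridzin and model groups in these markers did not pass the test, as given above.

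These calls were close to the threshold. In limma-voom, Marco lost its call (adjusted p = 0.052). With no filter on low values, and with only the highest row of each gene, 0 of 10 markers were DE. The number of DE markers was 0 without control 1, 1 without control 2 (Cd5l), 0 without control 3, 0 without phloridzin 1, 0 without phloridzin 2 and 5 without phloridzin 3. Phloridzin 1, which stood apart over all genes, had the highest values of Clec4f, Vsig4, Cd5l, Adgre1 and C1qa among the 12 livers. Without phloridzin 1 and silibinin 3 together, 1 marker was DE, Marco (log2 fold change 3.58, adjusted p = 0.028), which was then also DE in the model group against the control group (2.07, adjusted p = 0.034). In that fit, 1.79% of all genes were DE and higher in the phloridzin group and 9.89% in the model group. With median-ratio scaling 0 markers passed, at adjusted p of 0.064 for Marco, 0.11 for Cd5l, 0.099 for Adgre1, 0.12 for C1qa and 0.12 for Csf1r. Their log2 fold changes were then 3.06, 0.80, 0.82, 0.79 and 0.63, in this order. Cd163 passed with this scaling in the model and silibinin groups, as given above. With equal total FPKM, Marco, Cd5l, Adgre1, C1qa and Csf1r were DE and Vsig4 passed the adjusted p alone (0.89, adjusted p = 0.048). Of all genes, 3.75% were then DE and higher. The silibinin group against the control group had 0 of 10 markers DE, against 1.74% of genes DE and higher and 0.243% DE and lower. There, 4 of 10 had an unadjusted p under 0.05 (21.5% of genes), limma-voom called 0 of 10 (688 of 13150 genes), and 0 of 10 passed the adjusted p, against 4.59% of genes higher and 0.433% lower. With equal total FPKM, Adgre1 was DE in this comparison (1.09, adjusted p = 0.028) and Csf1r passed the adjusted p alone (0.84, adjusted p = 0.039), where 3.24% of all genes were DE and higher. Marco, Adgre1 and Csf1r were higher without overlap (26.4% of genes) and Cd163 was lower (4.01%). Genes of other lists were DE and higher here: 5 of 8 scar-associated, 4 of 7 monocyte and 1 of 11 other general macrophage genes. So were 2 of 7 stellate cell genes and 2 of 7 transcription factors. With median-ratio scaling, in the same order, 4, 3, 1, 3 and 2 genes passed the adjusted p and were higher, against 3.06% of all genes. Jchain was DE and higher and Hba-a1 DE and lower, passing in 0 and 1 of 6 fits with 1 liver left out. The difference between these counts is not a test of the drugs against each other, and both comparisons share the control livers.

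The 45 pairs of markers showed which of them moved together from liver to liver, given as Pearson's r of log2(FPKM + 1) over 12 livers and, after group means were taken out, within groups. Adgre1 and Csf1r had the highest value, with r = 0.974 over all livers and 0.938 within groups. Clec4f had r = 0.522 with Csf1r over all livers and 0.902 within groups, and 0.666 and 0.926 with C1qa. Clec4f thus varied together with Adgre1, Csf1r and C1qa among livers of a group, but not with Cd68 (0.0367 within groups). Cd163 had negative values over all livers with 7 of the 9 other markers (-0.328 with Adgre1), and within groups it was positive with all 9. Cd68 had values between -0.211 and 0.425 within groups with the other 9 markers. Both genes of a pair are read from the same library, so these values include any effect of the library.

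Among 10847 other genes with protein-coding transcripts and a mean of at least 1 FPKM, the genes most like Clec4f over the 12 livers were Gclc (r = 0.91), Cd55 (0.896), Folr2 (0.876), 1810009A15Rik (0.873) and Brms1 (0.869). Folr2 encodes a folate receptor that marks resident macrophages, and it was on the list of other Kupffer cell genes. The genes most like Cd68 were Mau2 (r = 0.885), Nkap (0.832), Fgfr1op2 (0.821), Slmap (0.818) and Plekhm1 (0.793). These values are a description, with no p-value.

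Other genes of resident Kupffer cells gave a mixed account in the model group against the control group. Of 8, 1 rose (31.1% of all genes) and 1 fell (3.8%), and both were DE. Slc11a1, which encodes the phagosomal metal transporter NRAMP1, rose by a log2 fold change of 1.39 (limma adjusted p = 0.00069), from 3.35, 5.58 and 5.55 FPKM to 11.4, 14.8 and 16.1 FPKM. Fcna, which encodes the lectin ficolin A, had 31.1, 32.2 and 27.6 FPKM in the control livers and 4.94, 2.49 and 14.02 FPKM in the model livers. It fell by 2.21 on the log2 scale (adjusted p = 0.045), with every model liver below every control liver. The call of Fcna was lost without control 1, control 2, control 3, model 1 or model 2 (adjusted p = 0.095, 0.10, 0.087, 0.11 and 0.15) and kept under 4 of 11 alternatives (adjusted p from 0.012 to 0.082 over the 11), median-ratio scaling among them. Slc11a1 kept its pass under 10 of 11, and not with only the highest row of each gene (adjusted p = 0.22). The median log2 fold change of the 8 genes was 0.10, below the 0.34 of all genes.

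Of 11 other general macrophage genes, 8 passed the adjusted p and were higher in the model group (31.1% of all genes), 5 were DE and higher (9.42%), and all 11 had every model liver above every control liver (45.1%). C1qc, Fcgr1 and Mertk did not pass (adjusted p = 0.063, 0.080 and 0.092). The 3 largest were Cd14 (log2 fold change 3.53, limma adjusted p = 6.3e-06), the co-receptor for bacterial endotoxin, Lyz2 (2.16, adjusted p = 0.0016), the lysozyme of myeloid cells, and Fcer1g (1.56, adjusted p = 0.0039), the shared signalling chain of Fc receptors. Lyz2 was at 31.1, 67.1 and 65.0 FPKM in the control livers and at 179, 280 and 256 FPKM in the model livers. Cd14 was at 1.35, 1.11 and 1.89 FPKM in the control livers and at 19.6, 33.6 and 29.9 FPKM in the model livers. The 11 genes summed to 133, 213 and 201 FPKM in the control livers, 425, 679 and 605 FPKM in the model livers, 481, 607 and 358 FPKM with silibinin and 808, 626 and 362 FPKM with phloridzin. With median-ratio scaling 4 of 11 passed and were higher, against 12.6% of all genes. In the 6 fits with 1 liver left out, Ctss passed in 2, Aif1 in 1, and C1qb and Mpeg1 in 4 each. The part of these shifts in the calls of Adgre1, Csf1r and C1qa was not tested.

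Monocyte genes rose in 6 of 7 cases in the model group, and all 6 were DE, against 9.42% of all genes DE and higher. The 3 largest were Chil3 (log2 fold change 2.02, limma adjusted p = 0.00098), Itgam (1.69, adjusted p = 0.00087), which encodes CD11b, and F13a1 (1.51, adjusted p = 0.00057). The 7 genes summed to 9.11, 11.4 and 9.96 FPKM in the control livers, 33.1, 48.9 and 38.1 FPKM in the model livers, 27.4, 29.0 and 23.2 FPKM with silibinin and 62.6, 37.7 and 26.4 FPKM with phloridzin, and Plac8 was the most abundant. Of the 8 genes of scar-associated macrophages, 8 were DE and higher in the model group. The 3 largest were Gpnmb (4.73, adjusted p = 0.00039), Cd63 (3.07, adjusted p = 0.00046) and Trem2 (2.78, adjusted p = 0.00046). These 8 summed to 32.5, 22.9 and 35.7 FPKM in the control livers and 146, 179 and 213 FPKM in the model livers, with Spp1 as the most abundant, and Gpnmb was listed at 0 in control 2. With median-ratio scaling, 5 of 7 monocyte genes and 7 of 8 scar-associated genes passed and were higher, against 12.6% of all genes. With only the highest row of each gene, Itgam (adjusted p = 0.094), Trem2 (adjusted p = 0.078) and Lgals3 (adjusted p = 0.20) did not pass. Lgals3 (2.53, adjusted p = 0.032) kept its pass under 6 of 11 alternatives and in 1 of 6 fits with 1 liver left out, and Plac8 in 10 and 4.

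**Figure D4:**
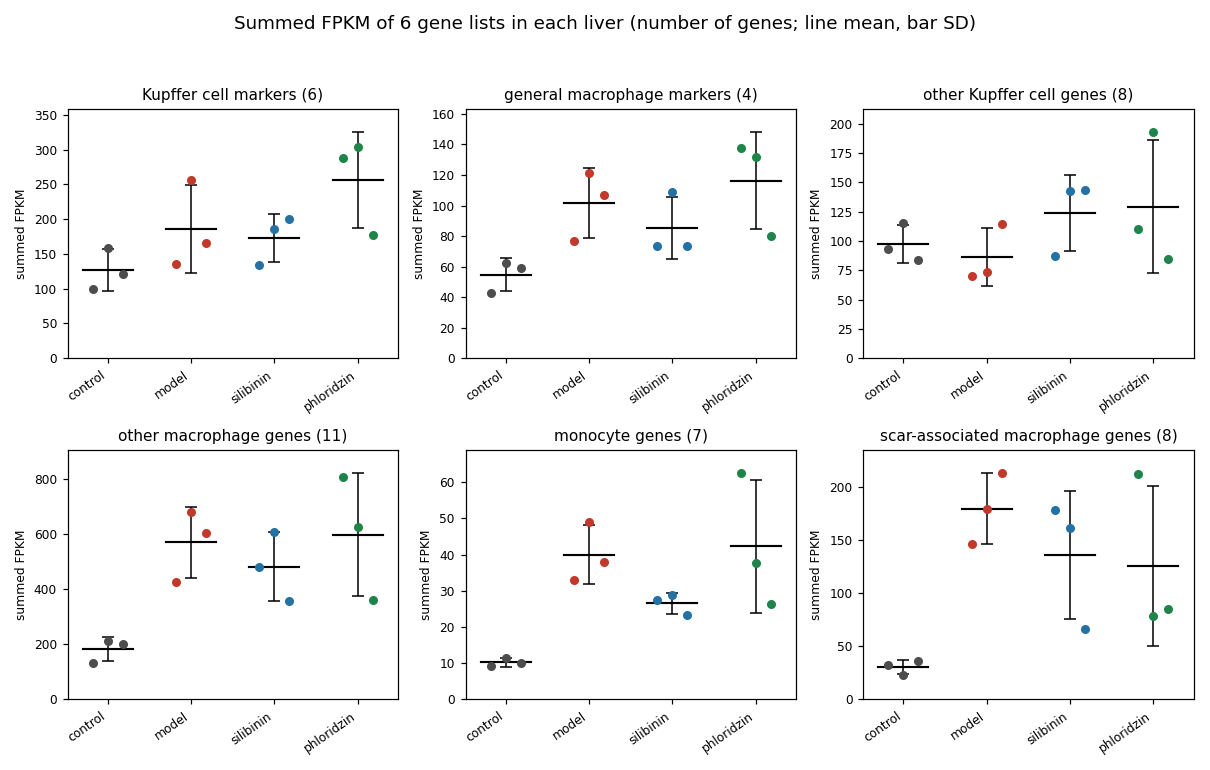
Summed FPKM of 6 gene lists (vertical axes, linear from 0) in the 12 livers, by group; points are livers, lines are means and bars are SD of 3 livers. The sum of the 6 Kupffer cell markers overlaps between control livers (99.3 to 159 FPKM) and model livers (135 to 257 FPKM), while the sum of the 7 monocyte genes does not. Cd5l holds most of the first sum (56.6 to 101 FPKM in control livers and 93.1 to 145 FPKM in model livers), and Plac8 is the most abundant monocyte gene.

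Among 7 transcription factors of macrophages, 4 rose in the model group by the adjusted p (31.1% of all genes) and 2 were DE (9.42%). The DE genes were Id3 (log2 fold change 1.91, limma adjusted p = 0.00022), which Kupffer cells need, and Irf8 (1.41, adjusted p = 0.00041), a factor of monocyte development. Irf8 lost its pass with only the highest row of each gene (log2 fold change -0.038, adjusted p = 0.97). The other 2, Maf (0.58, adjusted p = 0.030) and Spic (0.92, adjusted p = 0.046), lost theirs with median-ratio scaling (adjusted p = 0.39 and 0.20) and in 5 and 4 of the 6 fits with 1 liver left out. Of 6 niche genes, which encode the signals that hold Kupffer cells in place, 4 rose by the same rule and 1 was DE, Tgfb1 (1.15, adjusted p = 0.00086). With median-ratio scaling 2 of 7 transcription factors and 2 of 6 niche genes passed and were higher, against 12.6% of all genes. Gdf2 (adjusted p = 0.37) and Il34 (adjusted p = 0.11) lost their pass. Csf1, the ligand of the Csf1r product, rose just short of the fold limit (0.99, adjusted p = 0.0011), from 2.73, 1.83 and 2.13 FPKM to 4.66, 6.21 and 5.39 FPKM. It lost its pass with only the highest row of each gene (adjusted p = 0.085), and it was named after its value had been seen.

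In the drug groups against the model group, genes of these lists were counted by the adjusted p. With silibinin, 1 of 8 other Kupffer cell genes, 1 of 11 other general macrophage genes, 1 of 7 transcription factors and 1 of 6 niche genes fell, where 11.4% of all genes did. With phloridzin, 1 of 11 other general macrophage genes, 1 of 7 transcription factors and 1 of 7 monocyte genes fell, where 10.4% of all genes did. No gene of these lists rose on FPKM as deposited, against 2.62% and 2.5% of all genes, and 0 of 8 scar-associated genes passed. With median-ratio scaling, 1 of 8 other Kupffer cell genes rose and 0 fell with each drug. Under that scaling, 5.56% of all genes rose and 6.33% fell with silibinin, and 4.67% rose and 6.19% fell with phloridzin. Cd14 fell with silibinin to 3.28, 3.91 and 2.66 FPKM (log2 fold change -2.72, limma adjusted p = 5.4e-05) and with phloridzin to 2.64, 3.66 and 2.29 FPKM (-2.87, adjusted p = 3.8e-05). For both drugs it passed the adjusted p under all 11 alternatives and in all 6 fits with 1 liver left out. F13a1 fell with phloridzin (-1.001, adjusted p = 0.012), where leaving out 1 liver gave values between -1.15 and -0.85. These were the DE genes of the macrophage, monocyte and niche lists in the drug groups against the model group. By the adjusted p alone, Id3 fell with silibinin (-0.79, adjusted p = 0.035) and with phloridzin (-0.90, adjusted p = 0.022), and Csf1 (-0.71, adjusted p = 0.014) and Slc11a1 (-0.77, adjusted p = 0.027) fell with silibinin, the last 2 being named after their values had been seen. These weaker calls did not hold throughout. In the 6 fits with 1 liver left out, Id3 passed in 1 with silibinin (lost without model 1, model 2 or any silibinin liver) and in 2 with phloridzin (lost without model 1, model 2, phloridzin 2 or phloridzin 3). Csf1 passed in 3 (lost without model 2, silibinin 1 or silibinin 2), and Slc11a1 in 2 (lost without model 2, model 3, silibinin 1 or silibinin 3). Under the 11 alternatives, Id3 passed in 8 with silibinin (adjusted p from 0.016 to 0.095) and in 9 with phloridzin (0.0043 to 0.12), Csf1 in 9 (0.010 to 0.24) and Slc11a1 in 7 (0.016 to 0.98). F13a1 passed in 10 of 11, and not with only the 2 groups compared (0.053).

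Markers of other cells in whole liver were counted by the adjusted p in the model group against the control group, where 31.1% of all genes rose and 3.8% fell. Of 7 genes of stellate cells, 6 rose, 3 of them DE: Col1a1 (log2 fold change 4.35, limma adjusted p = 0.00042), Col3a1 (3.75, adjusted p = 0.00039) and Lrat (1.47, adjusted p = 0.00032). The sum of the 7 was 87.2, 78.7 and 91.5 FPKM in the control livers and 237, 233 and 269 FPKM in the model livers, with Dcn as the most abundant (0.64, adjusted p = 0.049, which passed in 1 of 6 fits with 1 liver left out). Of 5 tested neutrophil genes 3 rose, with Retnlg DE (1.20, adjusted p = 0.035, passed in 2 of 6), and S100a9 was listed at 0 in 7 of 12 livers and Ly6g in 1, with S100a8 the most abundant. The 6 neutrophil genes in the table summed to 22.3, 8.38 and 23.7 FPKM in the control livers and 29.7, 75.2 and 47.0 FPKM in the model livers. Of the B cell genes, Jchain was DE and higher (1.81, adjusted p = 0.010) and the most abundant. Of 2 tested cholangiocyte genes 1 rose (Krt19, passed in 2 of 6), with Sox9 the most abundant. Of 6 endothelial genes 0 passed (Clec4g the most abundant), of 3 tested T and NK cell genes 0 passed (Cd3e), and of 5 erythroid genes 0 passed (Hbb-bs). Of 6 dendritic cell genes 1 was tested and rose (Zbtb46, which passed under 7 of 11 alternatives and was lost without control 2, control 3, model 1 or model 3), and Clec9a and Cd209a were listed at 0 in some livers. Of 6 hepatocyte genes 1 fell and was DE (Cyp2e1, log2 fold change -2.35, adjusted p = 0.0014, not with only the highest row of each gene, adjusted p = 0.60), and Alb was the most abundant at a mean of 18380 FPKM. With median-ratio scaling, 3 stellate, 1 neutrophil, 1 B cell, 0 cholangiocyte and 0 dendritic cell genes passed and were higher in the model group, and 2 of 5 erythroid genes and 1 of 6 hepatocyte genes passed and were lower. Under that scaling, 12.6% of all genes passed and were higher, and 12.6% passed and were lower. In the drug groups against the model group, Retnlg of the neutrophil list fell and Alas2 of the erythroid list rose with silibinin, and Lrat of the stellate list fell with phloridzin. Of 11 alternatives and of 6 fits with 1 liver left out, Retnlg passed in 5 and 2 (lost without model 2, model 3, silibinin 1 or silibinin 3), Alas2 in 9 and 2 (lost without model 1, model 2, silibinin 2 or silibinin 3) and Lrat in 10 and 4 (lost without model 3 or phloridzin 2). The part of these other cells in the marker values was not tested.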

How the data were processed

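Liver RNA of 12 mice was sequenced in 4 groups of 3, and groups were taken from the sample titles. The authors deposited FPKM values, 1 for each of 169430 transcripts and each liver, of which 82136 rows carry a gene symbol. The submitters' notes name HISAT2 2.1.0, StringTie 1.3.3b and DESeq 1.28.0 and the build mm10, and which tool made the values is not given in the sources used here. FPKM are scaled by transcript length and library size and not for library composition, so that a shift in a few abundant transcripts moves all others. In transcripts of at least 1500 bases, 98.6% to 99.15% of low values multiplied by the length were whole multiples (within 0.05) of a step, which gave the library sizes and fragments. Rows were summed by symbol. limma 3.58.1 (R 4.3.3) with a trend in the variance was run on log2(FPKM + 1) for genes with a mean of at least 0.5 FPKM, in 1 fit of all 12 livers, with two-sided p-values adjusted by Benjamini-Hochberg over 13158 genes. limma took the place of a count test because the values are FPKM. The fit was tested on simulated data for the model and control groups. Every gene there was given the same dispersion (0.0504, a measure of spread). Of genes changed 2-fold there, 57% passed the adjusted p and 21.2% were DE. For 4-fold changes these shares were 99.7% and 84.8%. Of the genes that passed, 5% and 5.97% were false. The mean coefficients of variation of the markers within groups ran from 21.3% (Csf1r) to 87.7% (Marco). These shares were not tested at the markers' own spread. Each liver is labelled as a separate sample. The p-values measure the spread between these 12 livers.

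All 10 markers were named, as were list genes that were DE in the model group or in a drug group against the model group (the 3 with the largest log2 fold change of a list and direction), the most abundant gene of other cell type lists, and the 5 genes most like Clec4f and Cd68. Some genes were also named because their calls were lost in an alternative. The markers and lists were chosen with earlier results of these data known. Alternatives were other filters, pseudocounts, scalings, cutoffs and row choices, a replicate block, only the 2 groups compared, limma-voom on fragments, and 1 liver left out. Equal total FPKM, the loss of silibinin 3 and phloridzin 1 together, and ratios within a liver were added after the data were seen. Promoters are from RefSeq (GRCm38.p6). Overlapping and antisense transcripts could not be separated by strand.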

Additional observations from a re-analysis of the deposited data

Results flagged for a closer look

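C1qa per Csf1r, a ratio within each liver, lay below the mean of the model livers (1.63) in all 3 silibinin livers (mean 1.33 ± 0.144, SD) and above it in all 3 phloridzin livers (mean 1.79 ± 0.1101). The phloridzin mean was higher than the silibinin mean by 0.461. The ratio was looked at after the values had been seen, and the difference was not tested. The control livers lay on both sides of the model mean, at 1.43, 1.505 and 1.95 (mean 1.63 ± 0.284). They overlapped the model and phloridzin livers. Of 13157 genes, 0.578% had the silibinin, model and phloridzin groups apart in any order per Csf1r.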

How the results depend on the processing

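The log2 fold changes of the 10 markers in 6 comparisons kept their direction and side of the threshold in 583 cases under the alternatives other than leaving out 1 liver; in 30 a pass was lost, in 12 a pass was gained and in 23 the sign changed. With median-ratio scaling the sign changed for Clec4f against the control group (-0.43 in the model and -0.057 in the phloridzin group), for Vsig4 (0.0070), Cd5l (0.17), Adgre1 (0.18), Csf1r (0.070) and Cd68 (0.081) with silibinin against model, and for Cd163 (0.038) with phloridzin against model. With only the highest row per gene it changed for Adgre1 with silibinin (0.045) and phloridzin (-0.12) against model and with phloridzin against silibinin (-0.17), and for Csf1r with phloridzin against model (-0.018). Without silibinin 3 and phloridzin 1 together, it changed with phloridzin against model for Clec4f (-0.18) and Adgre1 (-0.027), with phloridzin against control for Clec4f (-0.16), with silibinin against model for Timd4 (-0.25), Marco (-0.69) and Adgre1 (0.067), with phloridzin against silibinin for Adgre1 (-0.094) and Cd68 (0.082), and with silibinin against control for Cd68 (-0.0020). It also changed for Csf1r with phloridzin against model at equal total FPKM (-0.013) and for Cd68 with silibinin against model in limma-voom (0.11). With 1 liver left out, direction and side were kept in 285 cases, a pass was lost in 36 and gained in 3, and the sign changed in 36. The ranges of the log2 fold changes that turned were, for model against control, Clec4f (-0.24 to 0.42) and Timd4 (-0.72 to 0.094); for silibinin against model, Timd4 (-0.25 to 0.58), Marco (-0.69 to 0.85), Cd5l (-0.16 to 0.15), Adgre1 (-0.21 to 0.072), Csf1r (-0.32 to 0.0021) and Cd68 (-0.38 to 0.24); for phloridzin against model, Clec4f (-0.19 to 0.63), Vsig4 (-0.056 to 0.37), Cd163 (-0.31 to 0.16), Adgre1 (-0.038 to 0.44), Csf1r (-0.074 to 0.32) and Cd68 (-0.30 to 0.14); for phloridzin against silibinin, Cd68 (-0.33 to 0.30); for silibinin against control, Timd4 (-0.51 to 0.11) and Cd68 (-0.0020 to 0.62); and for phloridzin against control, Clec4f (-0.16 to 0.65). The number of DE markers in the model group against control was 0, and became 2 with pseudocount 0.1, 1 with only the 2 groups compared, 1 in limma-voom, 4 at equal total FPKM, 1 without the pair of livers named above, 3 with no fold cutoff, 3 with a cutoff of 0.5, 1 at an adjusted p under 0.1, and 0 to 2 with 1 liver left out. In the same order, 18.1%, 9.73%, 17.6%, 14.8%, 9.89%, 31.1%, 27.4% and 10.2% of all genes were called and higher. With 1 liver left out, that share was 8.60% to 9.39%. With silibinin against control the number of DE markers was 0, and became 1 with median ratios (Cd163, lower) and 1 at equal total FPKM (Adgre1, higher). Of all genes, 0.433% were DE and lower with median ratios, and 3.24% were DE and higher at equal total FPKM. With phloridzin against control the number of DE markers was 4, and became 0 with no filter, 0 with median ratios, 0 with the highest row per gene, 1 with only the 2 groups, 1 without the pair of livers, and 0 to 5 with 1 liver left out. In the same order, 1.06%, 1.35%, 1.35%, 0.927% and 1.79% of all genes were DE and higher. With 1 liver left out, that share was 1.41% to 4.48%. Over all genes, the count of DE genes in the model group against control was 1382, and became 2596 with pseudocount 0.1, 2535 in limma-voom, 4594 with no fold cutoff and 4039 with a cutoff of 0.5. With silibinin against model, 526 became 795 in limma-voom, 1849 with no fold cutoff and 1670 at 0.5. With phloridzin against model, 463 became 702 with pseudocount 0.1, 1691 with no fold cutoff and 1514 at 0.5. With phloridzin against silibinin, 3 became 5 with the highest row per gene, 0 with only the 2 groups, 22 without the pair of livers, and 1 to 6 with 1 liver left out. With silibinin against control, 261 became 828 with pseudocount 0.1, 456 with pseudocount 0.5, 117 with the highest row per gene, 688 in limma-voom, 461 at equal total FPKM, 556 without the pair of livers, 661 with no fold cutoff, 633 at 0.5, and 101 to 381 with 1 liver left out. With phloridzin against control, 398 became 1103 with pseudocount 0.1, 710 with pseudocount 0.5, 242 with median ratios, 190 with the highest row per gene, 143 with only the 2 groups, 937 in limma-voom, 1051 with no fold cutoff, 999 at 0.5, and 214 to 635 with 1 liver left out. A block for the replicate number, whose same-number pairs had a median r of 0.0039, left the DE markers at 0 in the model group and 4 in the phloridzin group against control, and gave 1363 and 347 genes. Scaling to equal total FPKM and leaving out the pair of livers were chosen with the data in view. The cause of these shifts was not tested. Depth limits Cd68 most, at 7 to 233 fragments a liver.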
